A study of Mus musculus with 18 samples.

Results

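The grainyhead-like genes Grhl1, Grhl2 and Grhl3, the epithelial ETS genes Elf3 and Ehf, and the epithelial splicing regulators Esrp1 and Esrp2 were followed through 18 RNA-seq libraries of mouse pancreatic ductal adenocarcinoma cells. These 7 genes were taken by symbol from the 24527 entries of the count table, and each symbol was found. With TGFb, RNA of Grhl1, Grhl2, Elf3, Ehf and Esrp2 was lower than with DMSO over the lines, and Grhl3 had 0 counts. The TGFb difference of Ehf did not pass in PD454. That of Grhl2 passed within PD883 alone and was lost with duplicates summed. With ionomycin, Grhl1, Grhl2 and Esrp2 were higher than with DMSO, while the differences of Grhl3, Elf3 and Ehf did not pass the test. Of these, Grhl1 kept its call under every alternative fit. The calls of Grhl2 and Esrp2 were lost with duplicates summed, and Elf3 and Ehf passed as lower with a mean for each group. Esrp1 was nearly absent from all libraries.

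The cells were the lines PD454, PD7591 and PD883, of mixed strain background. Each line was kept for 48 h with DMSO, the vehicle, with ionomycin at 2.5 µM, which lets calcium into cells, or with the cytokine TGFb at 10 ng/ml, a known inducer of epithelial-mesenchymal transition (EMT). All groups shared a medium with a serum supplement, insulin, dexamethasone, cholera toxin, triiodothyronine and nicotinamide. There were 2 libraries in each of the 9 combinations, so 6 in each treatment. The sources used here give neither the driver alleles of the lines, nor whether a line is 1 clone, nor whether duplicate libraries came from separate cultures. The p-values therefore cover only these libraries. Within lines they measure the spread between duplicates, which may be technical. In fits over the lines that spread also holds differences of an effect between the lines. As these are bulk RNA measurements, fewer cells expressing a gene and less RNA per cell cannot be told apart.

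Grainyhead-like proteins are DNA-binding factors that keep genes of cell junctions, membrane proteases and their inhibitors active in surface epithelia. ELF3 and EHF belong to a branch of the ETS family that is largely restricted to epithelial cells, including those of ducts and glands. ESRP1 and ESRP2 are RNA-binding proteins that direct the epithelial choice of alternative exons in genes such as Fgfr2 and Cd44. The repressors of the ZEB and SNAI families, which bind E-boxes, are known to act against several of these genes during EMT.

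In the GENCODE M21 annotation of GRCm38 (mm10), Grhl1 lies on chr12:24572283-24617391 and Grhl2 on chr15:37233036-37363569, both on the plus strand. Grhl3 lies on chr4:135541888-135573630, Elf3 on chr1:135253575-135258568, Ehf on chr2:103263433-103303278, Esrp1 on chr4:11331933-11386783 and Esrp2 on chr8:106130319-106136974, all on the minus strand. Exons of Esrp2 overlap those of Nfatc3 and 1810019D21Rik on the opposite strand, both of which are also in the count table. Since the strand mode of the counting is not given in the sources used here, a part of the Esrp2 counts could belong to those genes. Exons of Grhl2, Elf3 and Esrp1 overlap opposite-strand transcripts that have no entry of their own in the table.

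RefSeq (GRCm38.p6) promoter sequences matched 3 of the 7 genes, Grhl1, Grhl3 and Elf3. They are shown because Grhl1 and Elf3 fell with TGFb, where Grhl3 had 0 counts, while Grhl1 alone among them rose with ionomycin. Each window holds the 250 bases before a start site, 5′ to 3′ on the gene's own strand. Capitals mark matches to 1 of 5 motifs that were searched on both strands. These were the E-box CACCTG bound by ZEB and SNAI factors, the grainyhead motif AACNNGTT, the AP-1 motif TGANTCA, the SMAD motif GTCTAGAC and the ATF4 motif TGATGNAA.
Grhl1 first start, chr12:24572037-24572286, plus strand: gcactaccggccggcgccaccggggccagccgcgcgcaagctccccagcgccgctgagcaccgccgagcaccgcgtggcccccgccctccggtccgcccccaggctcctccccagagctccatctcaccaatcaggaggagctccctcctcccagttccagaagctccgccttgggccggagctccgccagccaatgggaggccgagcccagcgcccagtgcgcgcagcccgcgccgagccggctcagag
Grhl1 second start, chr12:24580469-24580718, plus strand: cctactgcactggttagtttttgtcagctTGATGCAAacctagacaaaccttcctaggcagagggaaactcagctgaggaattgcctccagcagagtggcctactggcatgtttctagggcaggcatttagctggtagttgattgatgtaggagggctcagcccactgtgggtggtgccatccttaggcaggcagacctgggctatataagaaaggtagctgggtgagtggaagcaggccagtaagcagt
Grhl3, chr4:135573633-135573882, minus strand: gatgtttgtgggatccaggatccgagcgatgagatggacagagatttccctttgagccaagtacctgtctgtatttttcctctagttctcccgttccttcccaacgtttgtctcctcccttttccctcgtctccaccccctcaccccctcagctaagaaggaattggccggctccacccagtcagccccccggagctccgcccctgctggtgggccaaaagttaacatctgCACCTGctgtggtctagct
Elf3, chr1:135258473-135258722, minus strand: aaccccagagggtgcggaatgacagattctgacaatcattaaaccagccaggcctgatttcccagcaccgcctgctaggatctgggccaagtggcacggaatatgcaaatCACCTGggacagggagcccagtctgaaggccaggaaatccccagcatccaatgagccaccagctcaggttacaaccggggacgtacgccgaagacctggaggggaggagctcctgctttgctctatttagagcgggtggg

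The Grhl3 window held 1 E-box, 19 to 14 bases before the start, and the Elf3 window held 1, 140 to 135 bases before it. An E-box of these letters was present in 17.22% of all 32851 promoter windows of this length. The window before the second Grhl1 start held TGATGCAA, a match to the ATF4 motif, 221 to 214 bases upstream, and 3.452% of all windows held that motif. The first Grhl1 window held none of the 5 motifs. No window of the 4 held the grainyhead, AP-1 or SMAD motif, which were found in 3.641%, 6.749% and 0.167% of all windows. A match is a description of these letters and not of binding.

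Library totals ran from 17591005 to 37894692 counts. Values below are counts-per-million (CPM) of the library size scaled with TMM factors, and a level over the lines is the mean ± SD of the 3 line means. The labelled cell type was checked against its markers. The 6 epithelial markers summed to 3908 to 9598 CPM per library, mostly from keratins, and Epcam stood low at 2.71 ± 0.421 CPM with DMSO (n = 3 lines). For TGFb against DMSO, 3 of the 6 were called lower and 1 higher, where 26.5% of all genes tested were lower and 24.3% higher. Krt19 ran from 4.12 to 60.6 CPM with TGFb, against 485 to 1746 with DMSO. Cdh1 ran from 19.0 to 129 CPM with TGFb, against 522 to 781 with DMSO. Immune markers summed to at most 2.08 CPM and endothelial markers to at most 2.79 CPM. The endothelial markers Cdh5 and Pecam1, the 2 of 4 tested, were higher with ionomycin than with DMSO (log2 2.35 ± 0.63 and 1.42 ± 0.51, edgeR adjusted p = 0.00796 and 0.0381), with Cdh5 at up to 2.62 CPM with ionomycin and 0.603 CPM with DMSO. Of the acinar genes, Cela1 was higher with TGFb (2.11 to 6.18 CPM) than with DMSO (0.0436 to 1.41 CPM, log2 3.19 ± 0.39, edgeR adjusted p = 2.02e-06), while Cpa1 and Ptf1a were at 0 in every library, as were Ins1, Ins2 and Sst of the endocrine list. The part of these markers in the results was not tested. The 8 fibroblast markers summed to 2.08 to 5.99 CPM in DMSO libraries and 1.55 to 4.30 CPM in ionomycin libraries. In TGFb libraries they summed to 7.24 to 102 CPM, mostly from Col1a1 (4.96 to 84.3) and Pdgfrb (0.846 to 15), while Thy1 and Lum reached at most 0.0757 and 0.211 CPM there. Their part in the results with TGFb was not tested. Short transcripts were over-represented in library 14 (DMSO PD454), 8 (DMSO PD883), 18 (TGFb PD454) and 12 (TGFb PD883), and none of the ionomycin libraries was among them. The ionomycin libraries 9 and 10 of PD883 differed from each other in several members, and ribosomal Rn45s took 0.304% of counts in library 9 and 1.61% in library 10.

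With DMSO the members differed widely in level. Compared per kilobase of exon, Elf3 was the most abundant at 29.1 ± 12.6 CPM per kb (SD, n = 3 lines), before Esrp2 at 7.79 ± 2.47 and Ehf at 4.76 ± 3.27. Below these stood Grhl1 at 0.654 ± 0.601, Grhl3 at 0.564 ± 0.560, Grhl2 at 0.128 ± 0.107 and Esrp1 at 0.0138 ± 0.0174 CPM per kb. The neighbours Esrp2 and Ehf differed by less than the spread between lines, and so did the means of Grhl1, Grhl3 and Grhl2. That spread ignores that the genes share libraries. Within each DMSO library Grhl1 lay above Grhl2 per kilobase of exon.

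**Figure D1:**
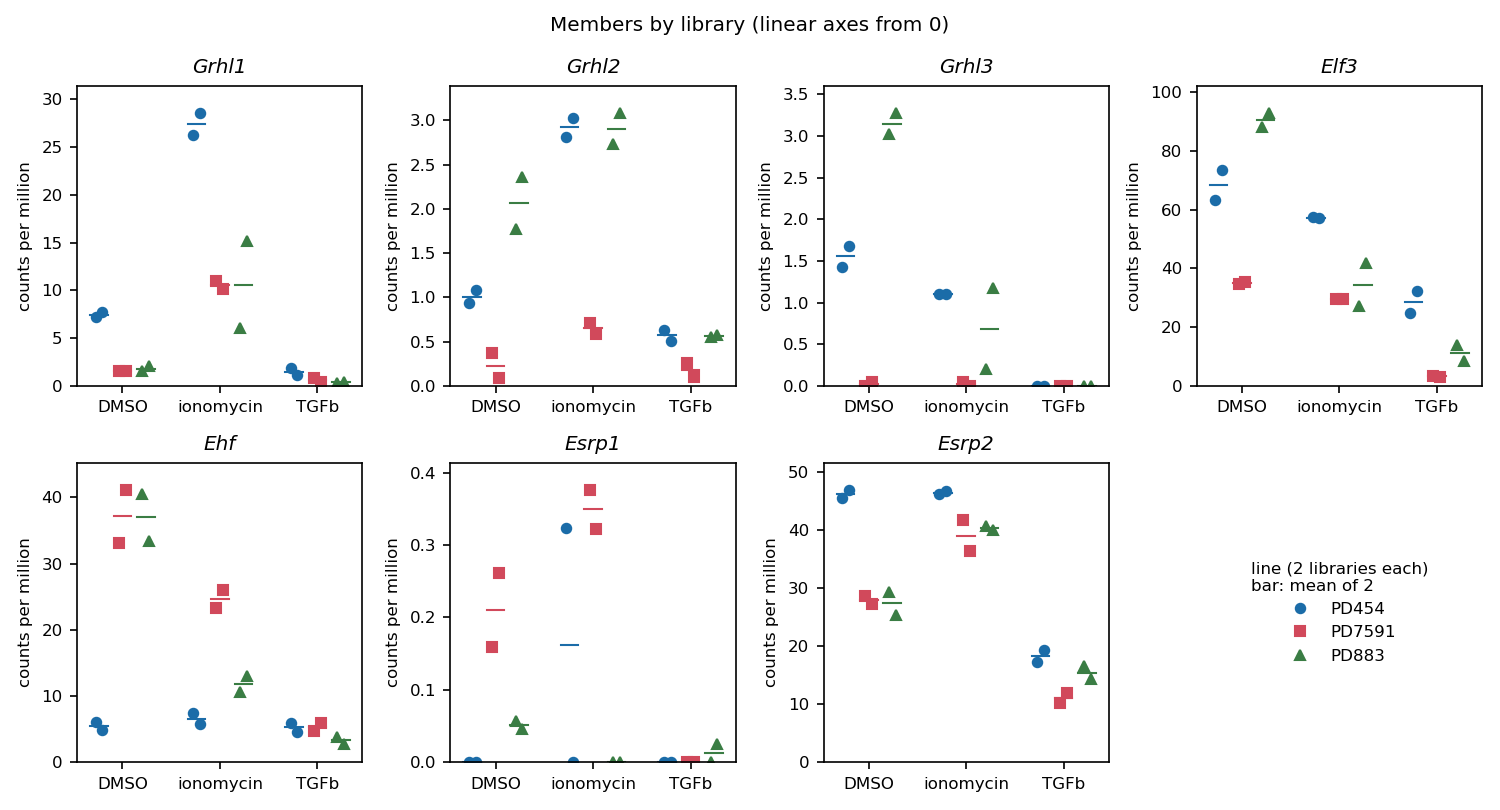
CPM (y axis, linear from 0, own scale for each gene) of the 7 genes in each of the 18 libraries, by treatment (x axis). Symbols give the line and bars the mean of its 2 libraries. Grhl1 is highest with ionomycin within each line, and Grhl3 is at 0 in all 6 TGFb libraries.

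Of the 7 genes, 6 passed the filter on low counts and were tested among 13827 genes, and Esrp1 did not. Grhl3 reached 10 counts in 7 libraries, none of them with TGFb, so it entered the test only through the groups where it was high. Its difference from TGFb is therefore given by counts, with no test, and it is left out of the counts of calls against TGFb. Calls are from edgeR's quasi-likelihood test with treatment and line as terms, at a Benjamini-Hochberg adjusted p under 0.05 over all genes tested. For ionomycin against DMSO, 3 of the 6 genes were higher and none was lower, where 17.2% of all genes tested were higher and 16.1% lower. At an unadjusted p under 0.05, Grhl3, Elf3 and Ehf were also lower in this comparison, and DESeq2 called none of the 3 lower. For TGFb against DMSO the other 5 genes were all lower, against 26.5% of all genes tested, while 24.3% were higher. For ionomycin against TGFb these 5 were all higher, against 31% of all genes tested, while 31.9% were lower. Within PD454, PD7591 and PD883 in turn, ionomycin set 11.7%, 11.2% and 11.6% of all genes tested higher than DMSO and 9.34%, 7.41% and 10.9% lower. TGFb set 16.1%, 20.1% and 20% lower than DMSO within these lines, and 22.2%, 24.1% and 24.8% were higher with ionomycin than with TGFb. The ionomycin and TGFb comparisons share the DMSO libraries, and the direct one shares its libraries with both.

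**Figure D2:**
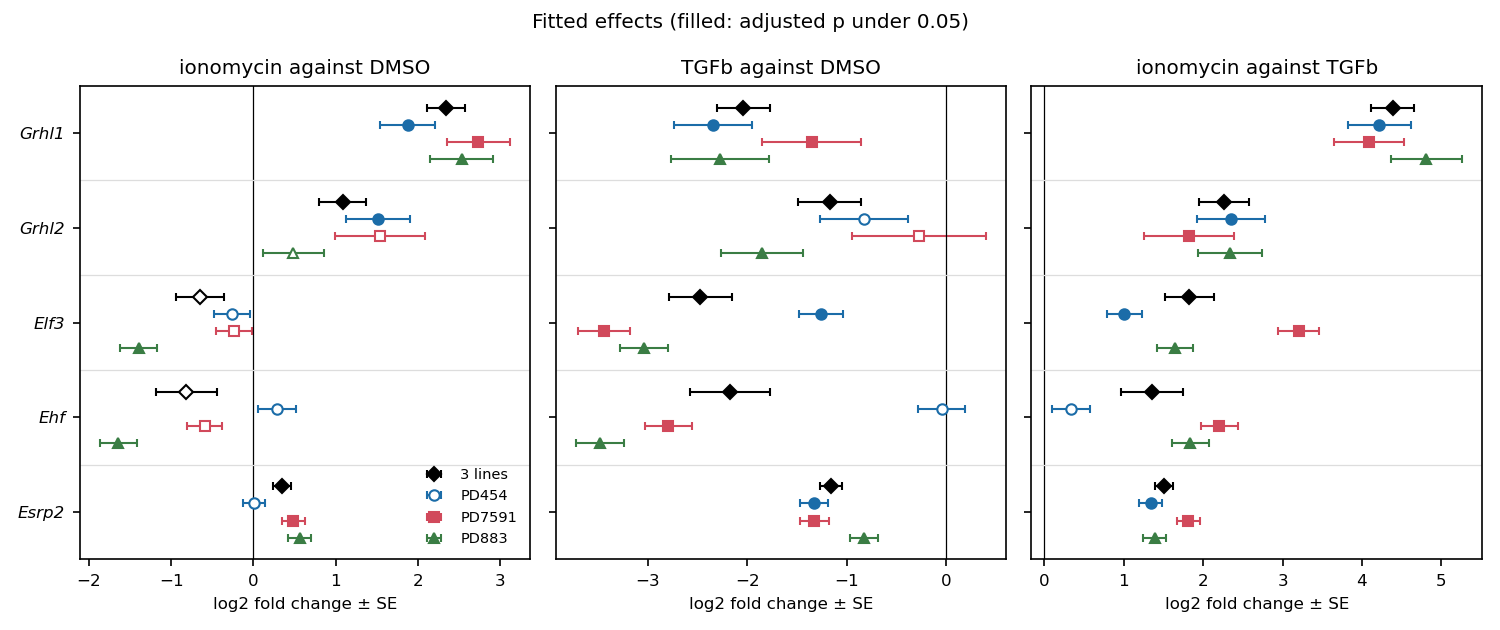
Fitted log2 fold changes ± SE (x axis) of the 5 tested genes with counts in every group (y axis), in 3 panels for the comparisons named above them. Black diamonds are the fit over 3 lines, coloured symbols the fits within a line, and filled symbols have an adjusted p under 0.05. With TGFb, Ehf in PD454 lies at -0.05 while it lies at -2.80 in PD7591 and -3.48 in PD883.

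Grhl1, a grainyhead factor of skin and other surface epithelia, showed the largest rise of the members with ionomycin. With DMSO it measured 7.24 and 7.69 CPM in PD454, 1.6 and 1.57 in PD7591, and 1.6 and 2.04 in PD883. With ionomycin it measured 26.3 and 28.5 CPM in PD454, 11 and 10.2 in PD7591, and 6.01 and 15.2 in PD883. With TGFb it measured 1.85 and 1.11 CPM in PD454, 0.845 and 0.398 in PD7591, and 0.325 and 0.404 in PD883. Within each line all ionomycin libraries lay above the DMSO libraries, and all TGFb libraries lay below them. Over the lines, the library of PD883 at 6.01 CPM with ionomycin still lay under the PD454 libraries with DMSO, so the 6 libraries of each treatment overlapped.

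The mean Grhl1 level was 3.62 ± 3.33 CPM with DMSO, 16.2 ± 9.71 with ionomycin and 0.821 ± 0.582 with TGFb (SD, n = 3 lines). Grhl1 rose 5.07-fold with ionomycin, a log2 fold change of 2.34 ± 0.23 (SE, edgeR adjusted p = 7.26e-07), and was higher in 3 of 3 lines, by 1.87 in PD454, 2.73 in PD7591 and 2.53 in PD883, each called. It fell by 2.04 ± 0.27 on the log2 scale with TGFb (adjusted p = 3.66e-06), with differences of -2.35 in PD454, -1.35 in PD7591 and -2.28 in PD883. The call in PD7591 (adjusted p = 0.0449) was lost without library 1 (adjusted p = 0.131), 2 (0.140) or 6 (0.314), where the lone library left in a group is assumed to vary like the others. Between ionomycin and TGFb the 6 libraries of each treatment did not overlap, and Grhl1 differed 20.9-fold (log2 4.39 ± 0.27, adjusted p = 1.10e-10). Among all genes tested, 14.7% were higher with ionomycin than with TGFb with no overlap. Between ionomycin and DMSO no member was free of overlap, against 4.54% of all genes tested higher and 2.69% lower. No dependence of the Grhl1 effects on the line passed the test (adjusted p = 0.472 for ionomycin and 0.552 for TGFb against DMSO).

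Grhl2, the family member best known for epithelial identity in carcinoma cells, had the lowest mean level of the 3 per kilobase with DMSO. By that measure it lay below Grhl1 in each DMSO library, and its difference from Grhl3 was within the spread between lines. It measured 0.932 and 1.08 CPM in PD454, 0.373 and 0.0872 in PD7591, and 1.77 and 2.36 in PD883 with DMSO. With ionomycin these were 2.82 and 3.02, 0.705 and 0.591, and 2.73 and 3.08 CPM. With TGFb they were 0.633 and 0.507, 0.264 and 0.0996, and 0.558 and 0.580 CPM. PD7591 was the lowest line in each treatment, with as few as 2 counts in a library, and libraries of different treatments overlapped over the lines.

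Over the lines Grhl2 rose by 1.08 ± 0.29 on the log2 scale with ionomycin (SE, edgeR adjusted p = 0.00756) and fell by 1.18 ± 0.32 with TGFb (adjusted p = 0.00510). Its counts summed over 6 libraries were 145 with DMSO, 257 with ionomycin and 65 with TGFb. In the single lines the ionomycin difference was 1.52 in PD454 (adjusted p = 0.0147), 1.54 in PD7591 (adjusted p = 0.0648) and 0.49 in PD883 (adjusted p = 0.383). Within PD7591 it moved with single DMSO libraries, to 2.81 without library 1 (adjusted p = 0.0257, called) and to 0.78 without library 2 (adjusted p = 0.443). With TGFb it was -0.83 in PD454 (adjusted p = 0.179), -0.28 in PD7591 (adjusted p = 0.797, and 1.04 without library 1) and -1.85 in PD883 (adjusted p = 0.00254). The ionomycin call in PD454 was lost when any of its 4 libraries was left out, with adjusted p = 0.0502 without library 13, 0.0790 without 14, 0.0594 without 15 and 0.0750 without 16. The call over the lines was lost without PD454 (adjusted p = 0.145), and that with TGFb without PD883 (adjusted p = 0.215).

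Ionomycin and TGFb set Grhl2 4.78-fold apart (log2 2.26 ± 0.31, edgeR adjusted p = 5.80e-06), in the same direction in 3 of 3 lines. Within PD7591 that difference, 1.82 with an adjusted p = 0.0185, was lost without library 3 (adjusted p = 0.0880) or 6 (adjusted p = 0.178).

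Grhl3, which acts in neural tube closure and in the epidermal barrier, was detected in PD454 and PD883 and nearly absent from PD7591. With DMSO it measured 1.43 and 1.68 CPM in PD454, 0 and 0.0436 in PD7591, and 3.02 and 3.27 in PD883. With ionomycin it measured 1.11 and 1.1 CPM in PD454, 0.0470 and 0 in PD7591, and 0.199 and 1.17 in PD883. All 6 TGFb libraries had 0 counts. In PD883 both ionomycin libraries lay below both DMSO libraries, and the pair of ionomycin libraries differed between themselves more than the DMSO pair.

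Grhl3 counts summed to 208 with DMSO and 72 with ionomycin. The ionomycin difference was -1.26 ± 0.50 on the log2 scale (SE, edgeR adjusted p = 0.0697) and did not pass over the lines, though it passed with only the ionomycin and DMSO libraries (-1.27, adjusted p = 0.0469). It was called in PD883 at -2.19 ± 0.61 (adjusted p = 0.0258), a call lost without library 7 (adjusted p = 0.0642), 8 (0.0870) or 9 (0.132). In PD454 the difference was -0.50 (adjusted p = 0.585). Against TGFb, Grhl3 with DMSO was at least 73.5-fold higher, with 3 counts over a group taken as the floor, and in single lines at least 21.6-fold in PD454 and at least 64.4-fold in PD883. With ionomycin it was at least 28.3-fold higher than with TGFb. PD7591, with 1 count each in the DMSO and ionomycin groups, gave no fold.

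The balance of Grhl1 to Grhl2 within a library was followed, because library scaling and gene length cancel when it is compared between libraries. In PD454 the ratio of Grhl1 to Grhl2 counts was 7.76 and 7.11 with DMSO, 9.33 and 9.44 with ionomycin, and 2.92 and 2.18 with TGFb. In PD883 it was 0.903 and 0.865, then 2.20 and 4.94, then 0.583 and 0.696. In PD7591 it was 4.29 and 18 with DMSO, the second of these from 2 Grhl2 counts, 15.5 and 17.2 with ionomycin, and 3.20 and 4.0 with TGFb. Ionomycin libraries lay above and TGFb libraries below the DMSO libraries in PD454 and PD883, and in PD7591 the DMSO pair overlapped the ionomycin pair.

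The mean log2 ratio, with 0.1 CPM added to each gene, was 1.70 with DMSO, 2.90 with ionomycin and 0.67 with TGFb. The ratio was 2.30-fold higher with ionomycin than with DMSO, 2.04-fold lower with TGFb, and 4.70-fold higher with ionomycin than with TGFb. Each of these had an exact two-sided permutation p = 0.00926, with libraries permuted within lines (adjusted p = 0.0278 over 9 tests of 3 gene pairs). That p is the smallest that permuting within lines can give. Grhl2 of PD7591 with DMSO was at 0.0872 to 0.373 CPM, so the added 0.1 CPM weighs there, and library scaling does not cancel fully. Without it, the DMSO library of PD7591 at 18 lay above both ionomycin libraries. For ionomycin against DMSO the smallest p therefore rests on the added value. The direction was the same in 3 of 3 lines for each comparison. The Elf3 to Ehf ratio did not pass in any comparison (lowest adjusted p = 0.167, exact permutation). That of Esrp2 to Esrp1 did not pass either (lowest adjusted p = 0.194). With 1 CPM added it passed for TGFb against DMSO at -1.0 and for ionomycin against TGFb at 1.24 (adjusted p = 0.0167, exact permutation). Esrp1 reached at most 0.376 CPM in a library, and with 1 CPM added it moved by only -0.11 and 0.21 in these comparisons. The ratio with 1 CPM added therefore followed Esrp2 and cannot show a change of balance.

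**Figure D3:**
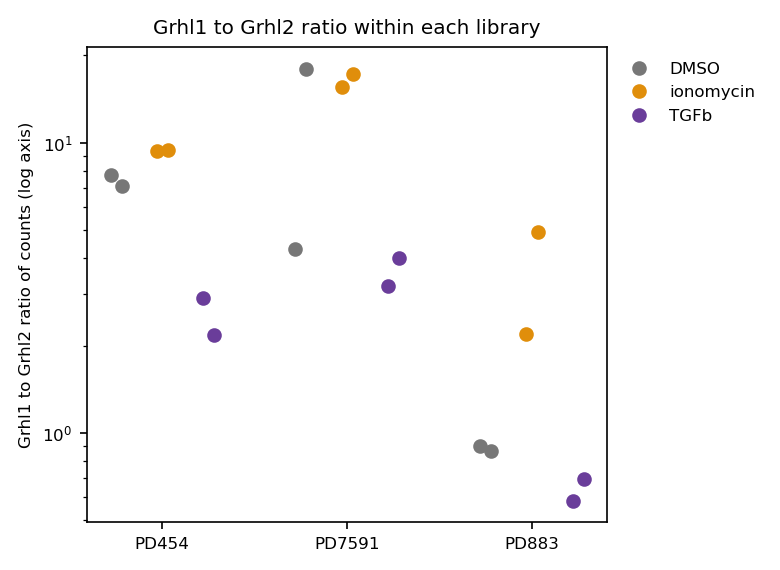
Ratio of Grhl1 to Grhl2 counts (y axis, log scale) in each of the 18 libraries, by line (x axis) and treatment (colour). In PD883 the ratio is 0.903 and 0.865 with DMSO, 2.20 and 4.94 with ionomycin, and 0.583 and 0.696 with TGFb.

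Elf3, an epithelial ETS factor, was the most abundant of the transcription factors per kilobase in each treatment. With DMSO it measured 63.1 and 73.4 CPM in PD454, 34.5 and 35.4 in PD7591, and 88.2 and 92.8 in PD883. With ionomycin it measured 57.3 and 57.0 CPM, 29.7 and 29.6, and 27.2 and 41.7. With TGFb it measured 24.7 and 32.2 CPM, 3.43 and 2.99, and 13.8 and 8.43. Every TGFb library lay below every DMSO library, while 9.41% of all genes tested were lower with TGFb with no overlap. The ionomycin libraries overlapped those of both other treatments.

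Elf3 stood at 64.6 ± 28.0 CPM with DMSO, 40.4 ± 14.7 with ionomycin and 14.2 ± 12.9 with TGFb (SD, n = 3 lines). With TGFb it fell by 2.47 ± 0.31 on the log2 scale (SE, edgeR adjusted p = 2.90e-06), with differences of -1.26 in PD454, -3.44 in PD7591 and -3.04 in PD883, each called. These sizes differed between the lines (adjusted p = 0.00269, joint edgeR test on 2 degrees of freedom), a call made for 5.26% of all genes tested. In PD7591 the TGFb level was 10.9-fold lower than with DMSO and in PD454 2.40-fold lower.

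With ionomycin the Elf3 difference was -0.65 ± 0.29 (adjusted p = 0.0961) over the lines and did not pass. It was -0.26 in PD454 (adjusted p = 0.418), -0.24 in PD7591 (adjusted p = 0.512) and -1.39 ± 0.22 in PD883 (adjusted p = 6.06e-04). The test that these were equal gave an adjusted p = 0.0703, which fell under the threshold without library 10 (0.0323), 11 (0.0356) or 12 (0.0339). The Elf3 difference over the lines did pass with a mean for each group (adjusted p = 0.00135) and with only the ionomycin and DMSO libraries (adjusted p = 0.0161). Elf3 was 3.55-fold higher with ionomycin than with TGFb (log2 1.83 ± 0.31, adjusted p = 5.29e-05), by 1.01 in PD454, 3.21 in PD7591 and 1.65 in PD883, sizes that differed between lines (adjusted p = 0.00306, called for 8.4% of all genes tested).

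Ehf, the closest relative of Elf3 followed here, differed in PD454 from the other lines. With DMSO it measured 6.03 and 4.90 CPM in PD454, 33.1 and 41.1 in PD7591, and 40.5 and 33.4 in PD883. With ionomycin it measured 7.43 and 5.75 CPM, 23.2 and 26.0, and 10.6 and 13. With TGFb it measured 6.02 and 4.52 CPM, 4.70 and 5.97, and 3.90 and 2.80. The DMSO libraries of PD7591 and PD883 lay above all others, and those of PD454 lay at the level of the TGFb libraries.

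With TGFb, Ehf fell by 2.80 ± 0.24 on the log2 scale in PD7591 (SE, edgeR adjusted p = 4.54e-07) and by 3.48 ± 0.24 in PD883 (adjusted p = 5.14e-08). In PD454 the difference was -0.05 ± 0.24 (adjusted p = 0.906). The effect depended on the line (adjusted p = 1.75e-04). Over the lines Ehf fell by 2.18 ± 0.41 (adjusted p = 2.02e-04), from 26.5 ± 18.2 to 4.65 ± 1.13 CPM (SD, n = 3 lines). With TGFb no line difference of Ehf passed (adjusted p = 0.0676).

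With ionomycin Ehf stood at 14.4 ± 9.28 CPM, and the difference over the lines, -0.81 ± 0.37 (edgeR adjusted p = 0.0960), did not pass. In PD883 it fell by 1.64 ± 0.22 (adjusted p = 1.77e-04), in PD7591 the difference was -0.59 ± 0.21 (adjusted p = 0.0686) and in PD454 it was 0.29 ± 0.23 (adjusted p = 0.399). Line dependence passed (adjusted p = 0.0170, called for 2.59% of all genes tested) but was lost without library 14 (0.0531), 15 (0.0622) or 9 (0.0603). The Ehf difference over the lines passed with a mean for each group (-0.65, adjusted p = 0.00113) and with only the ionomycin and DMSO libraries (-0.69, adjusted p = 0.0424). It also passed without PD454 (-1.12, adjusted p = 0.00195), library 13 (adjusted p = 0.0465) or library 14 (0.0314). Within PD7591 it passed with library totals (adjusted p = 0.0393). Between ionomycin and TGFb, Ehf differed by 1.36 ± 0.39 over the lines (adjusted p = 0.00554), a call lost without PD7591 (0.92, adjusted p = 0.154), and by 0.33 in PD454, 2.20 in PD7591 and 1.84 in PD883 (line dependence, adjusted p = 0.00566).

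**Figure D4:**
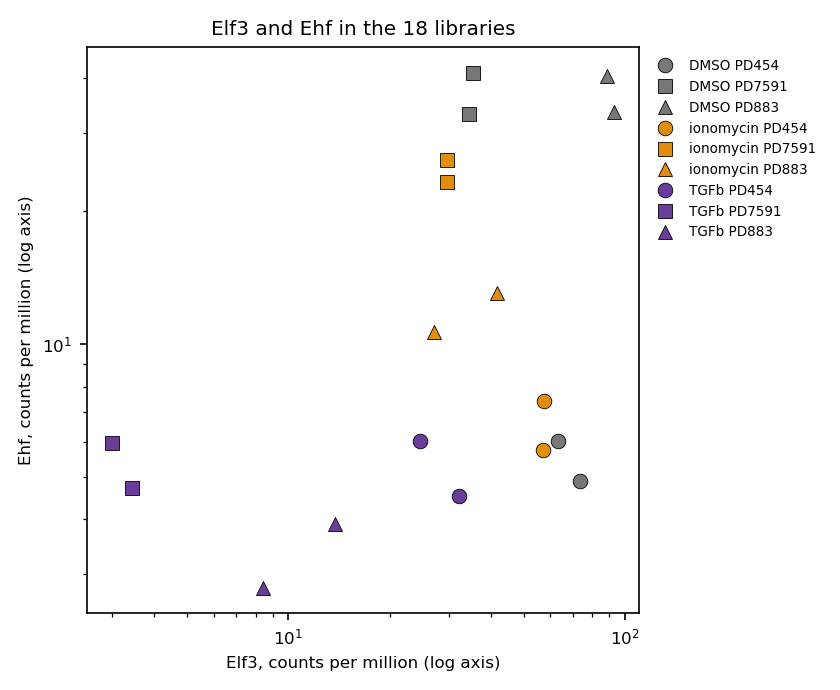
Ehf (y axis) against Elf3 (x axis) in CPM, both on log scales, in the 18 libraries, with colours for treatments and shapes for lines. The PD454 libraries keep Ehf between 4.52 and 7.43 CPM in all treatments while their Elf3 runs from 24.7 to 73.4 CPM.

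Esrp2 was the only splicing regulator of the pair with substantial counts. With DMSO it measured 45.5 and 46.9 CPM in PD454, 28.6 and 27.3 in PD7591, and 29.2 and 25.4 in PD883. With ionomycin it measured 46.1 and 46.7 CPM, 41.7 and 36.3, and 40.6 and 40.0. With TGFb it measured 17.3 and 19.4 CPM, 10.3 and 11.9, and 16.5 and 14.3. All TGFb libraries lay below all DMSO and all ionomycin libraries. Of all genes tested, 9.41% were lower with TGFb than with DMSO with no overlap, and 14.7% higher with ionomycin than with TGFb. With ionomycin PD7591 and PD883 lay above their DMSO libraries while PD454 did not.

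Esrp2 fell by 1.16 ± 0.11 on the log2 scale with TGFb (SE, edgeR adjusted p = 9.63e-08), from 33.8 ± 10.7 to 15 ± 3.63 CPM (SD, n = 3 lines), and the call held in each line, at -1.33 in PD454, -1.33 in PD7591 and -0.83 in PD883. Ionomycin and TGFb set it 2.85-fold apart (log2 1.51 ± 0.11, adjusted p = 2.11e-09). The rise with ionomycin was small, 1.27-fold to 41.9 ± 3.94 CPM (log2 0.35 ± 0.11, adjusted p = 0.0220), at 0.01 in PD454, 0.48 in PD7591 and 0.56 in PD883. That call was lost with library totals in place of TMM factors (adjusted p = 0.0783), without PD7591 (0.133), without PD883 (0.130), without library 8 (0.0511) and without libraries 8, 12, 14 and 18, in which short transcripts were over-represented (0.0539). Within PD7591 it was lost with library totals (0.0523), with no filter on low counts (0.0895) and without library 1 (0.115), 2 (0.167) or 3 (0.180), and within PD883 without library 8 (0.0736).

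Esrp1, the paralog of Esrp2, had 11 counts in the 6 DMSO libraries, 21 in the 6 ionomycin libraries and 1 in the 6 TGFb libraries. No library reached 10 counts. Of these counts, 9 with DMSO and 14 with ionomycin came from PD7591, and 7 came from the single ionomycin library 15 of PD454, whose duplicate had none. The ratio of ionomycin to DMSO was 2.12, with an exact 95% counting interval of 0.979 to 4.88. That of DMSO to TGFb was 11.7 (1.70 to 502), and that of ionomycin to TGFb 24.8 (3.99 to 1025), where the single TGFb count came from library 12 of PD883. Without library 2 of DMSO PD7591 the ratio of DMSO to TGFb was 6.41 (0.717 to 303) and that of ionomycin to DMSO 3.87 (1.42 to 13.1). Reads carried no molecular identifiers and are not independent molecules, so these intervals cover only the error of counting.

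No difference of Esrp1 passed the exact two-sided permutation test on log2(CPM + 0.1). By that exact permutation test, the difference for TGFb against DMSO was -0.68 (p = 0.0556, adjusted p = 0.167 over 3 tests), for ionomycin against DMSO 0.33 (p = 0.528) and for ionomycin against TGFb 1.01 (p = 0.167, adjusted p = 0.250). With no filter on low counts edgeR called Esrp1 higher with ionomycin than with TGFb (adjusted p = 0.0127) and not in the other comparisons (0.463 and 0.114).

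The lines differed in these genes before treatment. Grhl1, Grhl2, Elf3, Ehf and Esrp2 each differed among the lines with DMSO (edgeR joint test), as did 47.9% of all genes tested. Between single lines with DMSO, 21.5% of all genes tested differed for PD7591 against PD454, 35.3% for PD883 against PD454 and 34% for PD883 against PD7591. PD454 held the highest Grhl1, with a log2 difference of -2.23 for PD7591 against it (adjusted p = 8.61e-04) and -2.03 for PD883 against it (adjusted p = 0.00115), and the highest Esrp2. It also held the lowest Ehf, which was 2.77 higher on that scale in each of the other lines (adjusted p = 1.36e-06 and 1.70e-06). PD883 held 3.21 more Grhl2 and 1.37 more Elf3 than PD7591 on that scale (adjusted p = 2.72e-04 and 4.13e-04). Grhl1 of PD7591 and PD883, Ehf of PD7591 and PD883, and Esrp2 of PD7591 and PD883 did not differ beyond their spread (adjusted p = 0.731, 0.989 and 0.885). With ionomycin, where 41.2% of all genes tested differed among the lines, no line difference of Esrp2 passed (adjusted p = 0.269). With TGFb, where 28.8% differed, those of Grhl2 (0.0714) and Ehf (0.0676) did not pass.

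Across the 18 libraries, log2 CPM of Grhl1 and Esrp2 had a Pearson r of 0.887, the highest of all pairs of tested members, and Elf3 and Esrp2 had 0.806. The lowest was 0.0343, for Grhl2 and Ehf. These are descriptions of libraries that share lines and treatments, and so are the genes most like each member by the same measure, among tested genes with a mean of at least 2 CPM. For Grhl1 these were Anxa10 (r = 0.981), Reep6 and Rfk, for Grhl2 Hist1h1c (0.948), Pip5k1b and Pfkm, and for Grhl3 Sptssb (0.930), Gal3st1 and Sema4g. For Elf3 they were Pklr (0.966) and Galnt12, for Ehf Tnfrsf1b (0.957), Gbe1 and St6gal1, and for Esrp2 1810008I18Rik (0.973), Klf4 (0.968) and Sgms1.

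Genes around the members were counted in lists that were chosen with results of these data known, so their counts are not independent evidence of a direction. Of all genes tested, 17.2% were called higher and 16.1% lower with ionomycin than with DMSO. For TGFb against DMSO these shares were 24.3% and 26.5%, and for ionomycin against TGFb 31% and 31.9%. A list count near these shares is not a result about that list. Grainyhead targets are junction and membrane genes known to be bound or activated by GRHL proteins. Of 23 such genes 19 were tested. With ionomycin 7 were higher and none lower, with a median log2 difference of 0.68 against -0.0341 for all genes tested. With TGFb 14 were lower and 3 higher, with a median of -1.53 against -0.0022 for all genes tested. In the direct comparison 16 were higher with ionomycin and 2 lower.

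The tight junction gene Cldn3 rose from 4.97 ± 6.25 to 34.0 ± 21.7 CPM with ionomycin (SD, n = 3 lines), a log2 fold change of 3.20 ± 0.33 (SE, edgeR adjusted p = 1.28e-06), and in each line. Spint1, an inhibitor of membrane proteases, rose by 1.48 ± 0.16 (adjusted p = 2.43e-06), from 4.64 ± 2.31 to 12.6 ± 4.79 CPM. With TGFb Spint1 was also higher, by 0.85 (edgeR adjusted p = 2.72e-04), a call lost with no line term (0.0586). Its relative Spint2 fell with TGFb by 2.52 ± 0.16 (adjusted p = 3.96e-10), and the junction gene Marveld3 by 5.19 ± 0.37 (adjusted p = 1.58e-09). Among the 3 that rose with TGFb, Cldn4, a claudin, went from 0.0941 ± 0.0698 to 60.2 ± 35.3 CPM. Its level with DMSO was near the floor, so the levels are given with no test, though the 3 include it. Cdh1, the epithelial cadherin and a GRHL2 target, stood at 608 ± 37.3 CPM with DMSO, 580 ± 34.9 with ionomycin (adjusted p = 0.829) and 67.4 ± 46.8 with TGFb (adjusted p = 3.15e-08).

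Of 6 tested transcription factors of epithelia outside these families, 4 were lower with TGFb and none higher. Klf4, a zinc finger factor of barrier epithelia, rose by 0.96 ± 0.13 with ionomycin (edgeR adjusted p = 2.14e-05) and fell by 2.29 ± 0.13 with TGFb (adjusted p = 1.24e-10). With ionomycin 2 of the list rose, Klf4 among them, and 1 fell, Foxa1 (-0.71 ± 0.19, adjusted p = 0.00929), a call lost without PD7591 (adjusted p = 0.0591), with no line term (0.468) and with duplicates summed (0.0515). Klf4 was called in each of the 3 lines in both comparisons.

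Of the 3 CP2 relatives of the grainyhead genes, Tfcp2l1 stood at 29.4 ± 14.4 CPM with DMSO and 1.88 ± 0.814 with TGFb, a fall of 4.0 ± 0.22 on the log2 scale (edgeR adjusted p = 4.78e-11). The widely expressed Tfcp2 rose by 0.65 ± 0.11 with TGFb (adjusted p = 5.51e-05). Of 9 tested ETS relatives, 4 rose and 2 fell with TGFb. Elk3 (log2 1.11 ± 0.10) and Etv4 (1.08 ± 0.12) were among the former, and Elf1 (-0.77 ± 0.10) and Ets2 (-0.82 ± 0.12) were the latter. With ionomycin 1 of the 9 rose, Etv5 by 0.98 ± 0.14 (adjusted p = 5.34e-05), and 1 fell, Elf2 by 0.31 ± 0.09 (adjusted p = 0.0147), a call lost without any of libraries 1, 2, 3 and 4 (adjusted p = 0.0528, 0.0522, 0.0530 and 0.0510).

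The 7 genes known as targets of epithelial ETS factors went in both directions. Tgfbr2, the TGFb receptor gene that ELF3 activates, did not pass with ionomycin (log2 -0.27 ± 0.13, edgeR adjusted p = 0.124) and fell by 1.44 ± 0.14 with TGFb (adjusted p = 6.64e-08). Lcn2, a secreted iron-binding protein, rose by 2.88 ± 0.51 with ionomycin (adjusted p = 3.18e-04) and fell by 4.96 ± 0.72 with TGFb (adjusted p = 1.38e-05). Its ionomycin difference was 4.56 in PD7591 and 2.55 in PD883, but 0.47 in PD454, where it was not called (edgeR adjusted p = 0.548). The prostaglandin synthase gene Ptgs2 rose with both, by 1.98 ± 0.25 and 3.14 ± 0.25 (adjusted p = 9.81e-06 and 8.94e-09), and so did the collagenase gene Mmp13. In all 3 rose and none fell with ionomycin, and 2 rose and 2 fell with TGFb.

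Of the 6 EMT repressors 4 rose with TGFb and none fell. Zeb2 rose from 7.83 ± 3.34 to 58.8 ± 16.6 CPM (log2 2.99 ± 0.20, edgeR adjusted p = 9.57e-10) and Snai1 from 1.51 ± 1.44 to 13.2 ± 6.25 CPM (log2 3.39 ± 0.35, adjusted p = 2.05e-07). With ionomycin 3 rose and none fell, led by Snai2 at 1.43 ± 0.21 (adjusted p = 6.81e-05), which was called in each line. Snai1 with ionomycin differed from DMSO by -0.47 ± 0.39 over the lines (adjusted p = 0.359). Its direction varied, at 0.89 in PD454 (edgeR adjusted p = 0.124), -1.18 in PD7591 (0.253) and -1.49 in PD883 (0.0108, called).

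Other splicing regulators known to act on EMT exons were followed beside the ESRP pair. All 17 were tested, and with ionomycin 10 were lower and none higher, with a median log2 difference of -0.50. The ESRP antagonist Hnrnpm fell from 464 ± 85.5 to 222 ± 31.8 CPM (log2 -1.06 ± 0.11, edgeR adjusted p = 1.33e-06), and in each line. Khdrbs3, a STAR-family RNA-binding protein, fell by 1.25 ± 0.16 (adjusted p = 1.58e-05). That call was lost in a fit without the line term, where the difference was -1.19 (adjusted p = 0.556). With TGFb 4 were higher and 4 lower, near the 24.3% and 26.5% of all genes tested. Rbm47, which promotes epithelial splicing, fell from 191 ± 39.3 to 11.3 ± 6.68 CPM (log2 -4.19 ± 0.38, adjusted p = 3.70e-08) in each line, and Mbnl3 by 2.37 ± 0.23 (adjusted p = 9.08e-08). With ionomycin Rbm47 differed by 0.13 ± 0.32 (adjusted p = 0.782).

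Of 10 genes with exons spliced by ESRP proteins, 3 were higher and 2 lower with ionomycin, and 2 were higher and 4 lower with TGFb. Gene counts do not show which exons were used. The growth factor receptor gene Fgfr2 stood at 32.6 ± 33.6 CPM with DMSO. It fell to 5.75 ± 3.00 CPM with ionomycin (log2 -2.27 ± 0.33, edgeR adjusted p = 5.82e-05) and also fell with TGFb, to 1.35 ± 0.716 CPM (log2 -4.35 ± 0.37, adjusted p = 2.08e-08). The hyaluronan receptor gene Cd44 rose with ionomycin by 1.19 ± 0.19 (adjusted p = 1.33e-04) and with TGFb by 0.86 ± 0.19 (adjusted p = 9.76e-04).

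**Figure D5:**
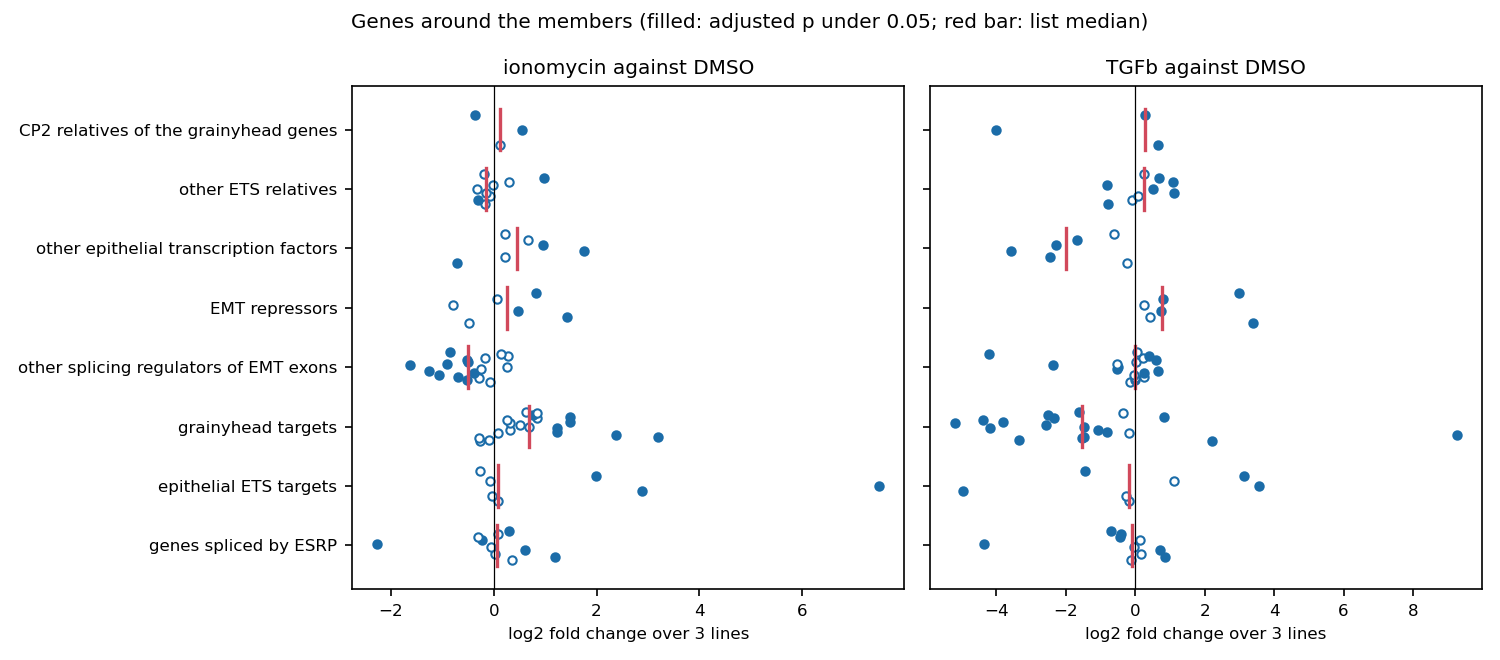
Log2 fold changes over 3 lines (x axis) of the tested genes in 8 lists (y axis), for ionomycin and for TGFb against DMSO. Filled points have an adjusted p under 0.05 and red bars are list medians. The grainyhead targets have a median of 0.68 with ionomycin and -1.53 with TGFb, with Cldn4 at 9.26 the farthest point. Cldn4 was near the floor with DMSO, so its size is uncertain.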

How the data were processed

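RNA was extracted with 1 of 2 column kits, per the labels' protocols, which do not say which library had which kit. The authors deposited raw read counts for each gene, unscaled. Per the submitters' processing notes, CASAVA, Trimmomatic 0.32, STAR and featureCounts were used with the build mm10. The sources used here do not give the settings, strand mode or annotation release. Of 24527 entries 5059 had 0 counts in all libraries.

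The counts were fitted with edgeR 4.0.16 under R 4.3.3 (TMM factors, filterByExpr over the 9 groups, robust quasi-likelihood F test, Benjamini-Hochberg adjustment over 13827 genes). Effects over lines came from a model of treatment and line, and effects within lines, line dependence and line differences from a mean for each group. The SE is the size of the log2 fold change divided by the square root of F. Low counts limit Grhl2, Grhl3 and Esrp1.

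The members and lists were chosen with earlier results of these data known. Of each list, up to 2 rising and 2 falling called genes with the smallest p per comparison could be named, along with genes of a role a result turns on, and only a part of them is named. Of the genes most like Elf3 and of some lists, a gene is not reported here. Alternatives were median-ratio factors, library totals, no filter, DESeq2 1.42.0, limma-voom (limma 3.58.1), a mean per group, duplicates summed, a fit with no line term, the libraries of the comparison alone, and leaving out the 4 libraries with over-represented short transcripts, each line or each library. Leaving out libraries in fits within lines, in tests of line dependence and in the permutation tests was added after seeing the data. Methods were tested on simulated data.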

Additional observations from a re-analysis of the deposited data

Results flagged for a closer look

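The effect of a treatment differed between the lines for Ehf and Elf3 (edgeR joint test on 2 degrees of freedom, Benjamini-Hochberg adjusted). For Ehf with TGFb against DMSO the adjusted p was 1.75e-04, with differences of -0.05 in PD454, -2.80 in PD7591 and -3.48 in PD883 on the log2 scale. For Elf3 with TGFb it was 0.00269, with -1.26, -3.44 and -3.04. For Ehf with ionomycin against DMSO it was 0.0170, with 0.29, -0.59 and -1.64, and this call was lost without library 14 (0.0531), 15 (0.0622) or 9 (0.0603). Between ionomycin and TGFb the adjusted p was 0.00306 for Elf3 and 0.00566 for Ehf. The spread behind these tests is that between duplicate libraries, and PD454, where Ehf differed least, also had the lowest Ehf level with DMSO, at 5.46 ± 0.805 CPM (SD, n = 2 libraries). The part of that level in the result was not tested.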

How the results depend on the processing

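Grhl1, Elf3, Ehf and Esrp2 with TGFb, and Grhl1 with ionomycin, kept their direction and their call under every alternative tried over the lines. For TGFb against DMSO, Grhl2 lost its call in 4 of 13 alternatives other than leaving out single libraries. With single libraries left out, its log2 difference ran from -1.32 to -0.95. Grhl3, with its 0 counts, is not counted here, and 26.5% of all genes tested were called lower in the main fit. For ionomycin against DMSO, 1 member was called higher with no line term and 1 with duplicates summed, while 2 were called lower with a mean per group (Elf3 and Ehf), 3 with the libraries of the comparison alone (Grhl3, Elf3 and Ehf), 1 without PD454 (Ehf) and 0 to 1 when each library was left out. Genes called higher with ionomycin were 1183 with no line term and 1159 with duplicates summed, against 2372. Those called lower were 969, 733, 1452 without PD454 and 1419 without PD7591, against 2227. For TGFb 2193 and 2135 were called higher with no line term and with duplicates summed, against 3356. Library totals moved the median of all genes from -0.0341 to -0.117 for ionomycin against DMSO and from -0.0367 to -0.108 for ionomycin against TGFb. Line dependence with ionomycin was called for 2 members with no filter and for 0 to 2 when each library was left out.

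Grhl2 lost its ionomycin call with no line term (adjusted p = 0.292) and with duplicates summed (0.0914), and its TGFb call with no line term (0.113), duplicates summed (0.0669) and without libraries 8, 12, 14 and 18 (0.117). Esrp2 lost its ionomycin call with no line term (0.255) and duplicates summed (0.163), and Ehf its call between ionomycin and TGFb with duplicates summed (0.0715). Duplicates summed leave 9 samples and fewer degrees of freedom. Otherwise the cause was not tested.

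Several differences that were not called changed sign. With ionomycin Esrp2 in PD454 was -0.0782 with library totals, and Grhl3 in PD7591 was -0.69 without library 1 and ran from -2.36 to 2.40 over the leave-outs. With TGFb Ehf in PD454 was 0.14 without library 13 and ran from -0.25 to 0.18, and Grhl2 in PD7591 was 0.30 without library 6 and ran from -1.06 to 1.04. With each library left out, the log2 difference between ionomycin and DMSO ran from -0.0154 to 0.68 for Esrp1, from -0.0710 to 0.10 for the Elf3 to Ehf ratio and from -0.33 to 0.37 for the Esrp2 to Esrp1 ratio. With 1 CPM added, the Esrp2 to Esrp1 ratio gave -1.0 for TGFb against DMSO and 1.24 for ionomycin against TGFb. Esrp1 lay below the added value in every library, so these values followed Esrp2.

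Treatments were matched by line through the line term and by permuting within lines. Within a line, no paired analysis was possible because the groups share no library numbers.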
